A study of Homo sapiens with 12 samples.

Results

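The 10 genes described here carry the unfolded protein response and the integrated stress response: XBP1, ERN1, DNAJB9, EIF2AK3, ATF4, DDIT3, TRIB3, ATF6, HSPA5 and HERPUD1. They were taken by name from array rows annotated to that single gene whose 12 values carry 3 decimals. All 10 were found among 16937 genes kept, and each had 1 distinct set of values. A gene was tested where its mean over the 12 arrays reached the 40th percentile of all genes, a log2 signal of 5.94. This kept 10162 genes, 8 of the 10 among them, while DDIT3 and ERN1 lay below it and are given from a fit without that minimum. Below, 5.94 is called the detection minimum, although it was set by that percentile and not by a measured limit of detection.

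The study profiled 2 Ewing sarcoma cell lines, A673 and TC32, on microarrays. For 6 h each line was given THZ531, at 100 nM in some cultures and 500 nM in others, or the solvent DMSO alone, with 2 biological replicates per group and therefore 12 arrays in 6 groups. THZ531 is a covalent inhibitor of the transcriptional kinases CDK12 and CDK13, and the study's title concerns CDK12 inhibition in Ewing sarcoma. The labels call the compound THZ_5_31_1 and also give the DMSO samples a dose of 100 nM, taken here as not meant for them. In Ewing sarcoma EWSR1 is fused to a gene of the ETS family, most often FLI1. Both lines are long-established cultures grown in serum, each 1 line from 1 tumour, so the arrays of a line are repeat cultures and not separate tumours. RNA from external spike-in controls was added to the total RNA, per the labels.

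Secretory and membrane proteins fold in the endoplasmic reticulum (ER), and unfolded protein there is sensed by the membrane proteins IRE1 (gene ERN1), PERK (EIF2AK3) and ATF6. IRE1 splices XBP1 mRNA into the form that encodes an active transcription factor; PERK phosphorylates the initiation factor eIF2, which slows translation in general while favouring that of ATF4; ATF6 is cut in the Golgi and its released fragment enters the nucleus. The integrated stress response is the wider pathway that joins PERK with the other eIF2 kinases at ATF4, and its downstream genes include DDIT3, which encodes CHOP, and TRIB3. These steps act largely through splicing, cleavage, phosphorylation and translation, which arrays of total RNA do not measure.

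The promoters of 3 of the 10 genes hold an exact match to the searched letters of an ER stress response element, bound by NF-Y together with ATF6 or XBP1. Those promoters are shown because XBP1 and HERPUD1 fell at 500 nM in both lines on both scales and HSPA5 did not. The windows shown are the 250 bases before the RefSeq transcript start (GRCh38.p14), 5′ to 3′ on the gene's strand, with the matches in capitals.
XBP1, chr22:28800570-28800819, minus strand: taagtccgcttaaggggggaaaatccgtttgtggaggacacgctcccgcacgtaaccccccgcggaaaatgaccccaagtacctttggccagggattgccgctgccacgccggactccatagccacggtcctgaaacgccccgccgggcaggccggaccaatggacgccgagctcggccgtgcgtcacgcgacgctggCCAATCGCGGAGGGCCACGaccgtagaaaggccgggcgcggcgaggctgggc
HSPA5, chr9:125241344-125241593, minus strand: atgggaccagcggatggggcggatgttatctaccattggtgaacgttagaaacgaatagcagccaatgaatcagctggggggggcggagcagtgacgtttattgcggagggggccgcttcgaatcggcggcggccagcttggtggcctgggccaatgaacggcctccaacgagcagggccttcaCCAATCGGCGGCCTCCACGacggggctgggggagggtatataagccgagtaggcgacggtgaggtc
HERPUD1, chr16:56931892-56932141, plus strand: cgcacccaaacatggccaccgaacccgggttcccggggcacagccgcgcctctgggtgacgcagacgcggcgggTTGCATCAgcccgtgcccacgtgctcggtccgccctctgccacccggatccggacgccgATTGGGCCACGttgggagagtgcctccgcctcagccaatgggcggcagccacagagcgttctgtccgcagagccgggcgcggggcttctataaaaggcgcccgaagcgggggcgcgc
The XBP1 and HSPA5 matches are to the element called ERSE, searched on both strands as CCAAT and CCACG with 9 free bases between them, which lay in 26 of 35116 such windows, or 0.074%. In XBP1 it runs from base -52 to base -34 before the start as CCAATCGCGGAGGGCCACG, and in HSPA5 from base -66 to base -48 as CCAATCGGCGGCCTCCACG. The first HERPUD1 match, TTGCATCA from base -176 to base -169, is the reverse strand of the amino acid response element TGATGNAA, present in 3.144% of windows. Its second match, ATTGGGCCACG from base -117 to base -107, is to ERSE-II, searched as ATTGG and CCACG with 1 free base between them and found in 18 windows, or 0.051%. XBP1 has a further RefSeq window without a match. No exact match to either form was found in the windows of the other 7 genes, and near matches were not counted. The DDIT3 windows hold such a near match, CCAAT and CCACT with 9 bases between them. A match describes letters only and does not show that a factor binds there.

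Signals fell over most of the arrays after THZ531, so differences are given on 2 scales. For some comparisons, and for some genes of the wider lists, only 1 of these scales is given. The first is the deposited log2 signal. The second, called relative, is the same value after subtracting that array's median over the 16937 genes. Array medians at 500 nM were lower than with DMSO by a log2 difference of -0.83 in A673 and -0.79 in TC32, and at 100 nM by -0.62 and -0.21. The authors' normalisation is not given in the sources used here, so a positive relative difference means only that a gene fell less than the middle gene of its array, unless the deposited value rose too. Fewer cells and less RNA per cell cannot be told apart in such samples. Replicates correlated at r = 0.9906 to 0.9968 across tested genes, but the pair of A673 arrays at 500 nM was offset, the second lying below the first by a median of -0.52. That offset cancels on the relative scale, where the median residual SD was 0.118 against 0.189 as deposited. All 8 kept markers of Ewing sarcoma were at or above the detection minimum, with means of 8.08 to 13.43. Some markers of other lineages reached that minimum too. Among haematopoietic markers 3 of 5 did (highest mean 6.90), and among epithelial ones 2 of 5 (7.28). For endothelium with fibroblasts it was 4 of 5 (6.58), and for neural tissue 3 of 4 (7.38). Each of these highest means lay below 8.08. The deposited log2 signals, summed over the 5 haematopoietic markers, were 31.06 to 32.32 with DMSO and 29.14 to 31.56 at 500 nM in A673. In TC32 they were 28.40 to 28.69 and 27.25 to 28.08. The neural sum over 4 markers was 27.89 to 29.35 and 25.75 to 27.90 in A673, and 24.35 to 24.70 and 23.46 to 23.80 in TC32. The epithelial sum over 5 was 30.29 to 31.71 and 29.58 to 30.86 in A673. In TC32 it was 28.34 to 28.95 and 27.61 to 27.76. For endothelium with fibroblasts it was 33.17 to 34.11 and 30.67 to 32.59 in A673. In TC32 it was 29.05 to 29.72 and 28.32 to 28.59. On the relative scale all these markers of other lineages had higher means at 500 nM than with DMSO in both lines, except PDGFRB in A673 (0.90 and 0.88). Their part in the results below was not tested.

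At 500 nM all 8 tested genes were lower than with DMSO on the deposited scale in both lines (limma, Benjamini-Hochberg adjusted p under 0.05), where 82.5% of all tested genes were called lower in A673 and 62.9% in TC32. None of the 8 was higher (limma; 0 also at an unadjusted p under 0.05), against 0.945% in either line. Relative to the array medians, 5 of the 8 fell in A673 and 2 were higher, against 27.4% lower and 29.6% higher among all tested genes. The 2 higher, ATF4 and HSPA5, were not called after quantile normalisation. In TC32 6 fell and 0 were higher (0 also at limma's unadjusted p under 0.05), against 30.7% lower and 41.3% higher. The 5 that fell in both lines on both scales were XBP1, HERPUD1, DNAJB9, TRIB3 and EIF2AK3, and each of these calls was kept when any 1 of the 12 arrays was left out. ATF4, HSPA5 and ATF6 stood apart from them. A673 and TC32 have separate DMSO arrays, but the 2 doses within a line are compared with the same ones.

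**Figure D1:**
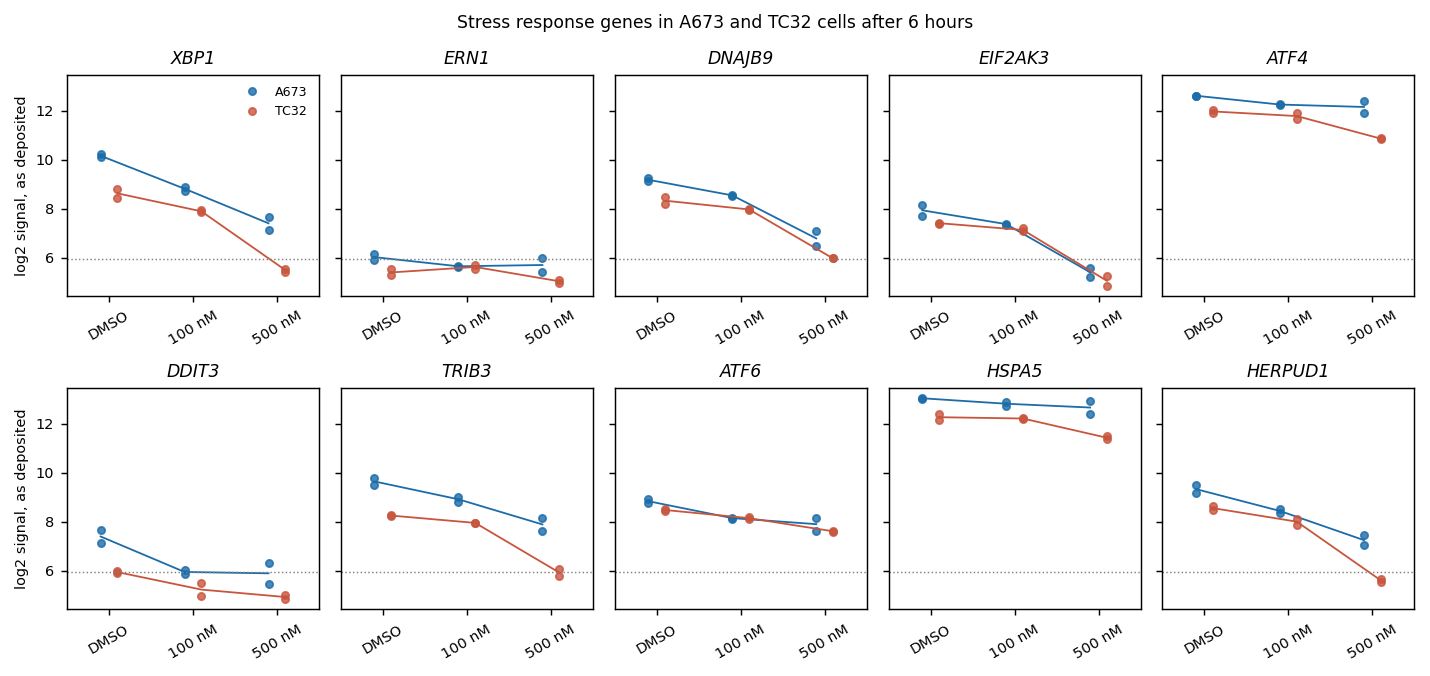
Deposited log2 signal (vertical axes) of each of the 10 genes on every array, by line and by treatment (horizontal axes); each point is 1 array and the dotted line is the detection minimum of 5.94. The arrays of XBP1, HERPUD1, DNAJB9, TRIB3 and EIF2AK3 at 500 nM sit well below their DMSO arrays in both lines, whereas those of HSPA5 and ATF4 lie closer, and ERN1 is under the line on 10 of 12 arrays.

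XBP1 encodes the transcription factor that IRE1 activates and that drives genes of ER expansion and protein degradation. In A673 its log2 signal read 10.22 and 10.09 (DMSO), 8.89 and 8.73 (100 nM) and 7.67 and 7.13 (500 nM). TC32 gave 8.79 and 8.45 (DMSO), 7.93 and 7.84 (100 nM) and 5.42 and 5.55 (500 nM). The 3 groups of each line did not overlap and stood in order of dose. At 500 nM XBP1 fell in both lines: the deposited log2 difference from DMSO was -2.76 ± 0.21 (SE, n = 2 per group) in A673, a 6.77-fold decrease, and -3.14 ± 0.21 in TC32. Because the TC32 mean at 500 nM lay under the detection minimum, the TC32 decrease is at least 6.40-fold. Relative to the array medians the differences were -1.93 ± 0.12 in A673 (limma adjusted p = 1.12e-11) and -2.34 ± 0.12 in TC32 (adjusted p = 3.93e-13). Among the 10162 tested genes, ordered from the largest relative fall, XBP1 was number 178 in A673. It was also the 1 tested gene of the 10 that fell at 100 nM in both lines on both scales.

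ERN1 encodes IRE1 alpha, the kinase and endonuclease that splices XBP1. Its signals were 6.13 and 5.90 (DMSO), 5.63 and 5.66 (100 nM) and 5.99 and 5.40 (500 nM) in A673, and 4.97 to 5.68 over the 6 TC32 arrays. With 10 of 12 arrays below the detection minimum, these values have no order that can be relied on. The deposited differences at 500 nM were -0.32 and -0.36 in A673 and TC32 while the relative ones were 0.51 and 0.43, opposite in sign, so no direction is given for ERN1.

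DNAJB9 encodes ERdj4, an ER co-chaperone of HSPA5 that restrains IRE1 and is itself a target of spliced XBP1. The A673 arrays read 9.12 and 9.23 (DMSO), 8.55 and 8.52 (100 nM) and 7.10 and 6.46 (500 nM). The TC32 signals were 8.46 and 8.18, then 7.98 and 7.94, then 5.96 and 5.96. Most of the decrease in both lines therefore lay between 100 nM and 500 nM. At 500 nM DNAJB9 fell 5.26-fold in A673 and 5.13-fold in TC32, with deposited log2 differences of -2.40 ± 0.21 and -2.36 ± 0.21. The TC32 mean at 500 nM lay just above the detection minimum of 5.94. The relative differences, -1.56 ± 0.13 in A673 and -1.57 ± 0.13 in TC32, had limma adjusted p-values of 7.53e-10 and 4.69e-10.

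EIF2AK3 encodes PERK, the ER kinase of eIF2. Its signals in A673 were 7.71 and 8.15 (DMSO), 7.38 and 7.35 (100 nM) and 5.59 and 5.21 (500 nM). TC32 gave 7.42 and 7.38, then 7.06 and 7.19, then 4.84 and 5.26. Every array at 500 nM was under the detection minimum and every other array above it. The decrease from DMSO to 500 nM was therefore at least 3.96-fold in A673 and at least 2.75-fold in TC32. On the relative scale EIF2AK3 fell too, with differences of -1.70 ± 0.18 in A673 (limma adjusted p = 3.31e-08) and -1.56 ± 0.18 in TC32 (adjusted p = 8.04e-08).

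ATF4 encodes the transcription factor at the centre of the integrated stress response. On the A673 arrays it read 12.62 and 12.60 (DMSO), 12.26 and 12.24 (100 nM) and 12.38 and 11.92 (500 nM). TC32 gave 12.02 and 11.91, then 11.65 and 11.91, then 10.83 and 10.89. At 500 nM ATF4 was lower than with DMSO by a deposited log2 difference of -0.46 ± 0.16 in A673 and -1.11 ± 0.16 in TC32. Relative to the array medians the A673 difference turned to 0.38 ± 0.11 (limma adjusted p = 0.00534) and the TC32 difference was -0.32 ± 0.11 (adjusted p = 0.0114). After quantile normalisation the A673 difference was -0.08 (adjusted p = 0.23) and the TC32 difference -0.80 (adjusted p = 1.4e-07), so a positive A673 value was found on median centring and not on the other 2 scales. The deposited A673 call ended without A673 DMSO replicate 1 (-0.45, adjusted p = 0.0578) or A673 500 nM replicate 2 (-0.23, adjusted p = 0.0592). The relative call ended in A673 without DMSO replicate 1 (0.26, adjusted p = 0.0642), and in TC32 without DMSO replicate 1 (-0.30, adjusted p = 0.0712) or 500 nM replicate 1 (-0.26, adjusted p = 0.0884).

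DDIT3 encodes CHOP, a transcription factor downstream of ATF4 that is linked to cell death under prolonged stress. A673 gave 7.67 and 7.14 (DMSO), 6.03 and 5.88 (100 nM) and 6.34 and 5.46 (500 nM). The DMSO arrays of A673 were the highest of the 12, and the treated A673 arrays overlapped each other. In the fit without a detection minimum, DDIT3 fell in A673 at both doses: 2.73-fold at 100 nM and, with a 500 nM mean under the minimum, at least 2.75-fold at 500 nM. The deposited log2 differences were -1.45 ± 0.22 and -1.50 ± 0.22. The relative differences were -0.83 ± 0.17 (limma adjusted p = 0.000616) and -0.67 ± 0.17 (adjusted p = 0.00227). The TC32 values lay between 4.83 and 5.98, under or barely above the detection minimum, and no fold is given there.

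TRIB3 encodes a pseudokinase induced by ATF4 and CHOP that feeds back on ATF4. Its A673 signals were 9.80 and 9.50 (DMSO), 9.03 and 8.81 (100 nM) and 8.16 and 7.63 (500 nM). Those in TC32 were 8.28 and 8.23, then 7.96 and 7.96, then 5.77 and 6.09. The groups did not overlap in either line. TRIB3 fell 3.38-fold at 500 nM in A673, and at least 4.97-fold in TC32, whose 500 nM mean was just under the detection minimum. The relative differences were -0.92 ± 0.12 in A673 (limma adjusted p = 1.73e-06) and -1.53 ± 0.12 in TC32 (adjusted p = 4.73e-10).

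ATF6 encodes the membrane-bound transcription factor of the third sensor branch. The A673 arrays read 8.78 and 8.91 (DMSO), 8.18 and 8.13 (100 nM) and 8.17 and 7.64 (500 nM). The TC32 signals were 8.52 and 8.45, then 8.10 and 8.20, then 7.64 and 7.58. The deposited values fell at 500 nM, with differences of -0.94 ± 0.21 in A673 and -0.87 ± 0.21 in TC32, beside shifts of the array medians of -0.83 and -0.79. The relative differences, -0.11 ± 0.13 in A673 (limma adjusted p = 0.481) and -0.08 ± 0.13 in TC32 (adjusted p = 0.591), did not pass the threshold, and turned positive after quantile normalisation (0.18 in both lines).

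HSPA5 encodes BiP, the major ER chaperone, whose binding to the 3 sensors keeps them inactive. Its A673 signals were 13.03 and 13.06 (DMSO), 12.92 and 12.74 (100 nM) and 12.93 and 12.41 (500 nM). TC32 gave 12.39 and 12.16, then 12.25 and 12.19, then 11.37 and 11.51. The deposited difference at 500 nM was -0.38 ± 0.15 in A673 (limma adjusted p = 0.0189) and -0.84 ± 0.15 in TC32, but on the relative scale it was 0.45 ± 0.10 in A673 (adjusted p = 0.000421) and -0.05 ± 0.10 in TC32 (adjusted p = 0.668). The deposited A673 call ended without A673 DMSO replicate 1 (-0.39, adjusted p = 0.0735), DMSO replicate 2 (-0.36, adjusted p = 0.0774) or 500 nM replicate 2 (-0.12, adjusted p = 0.319), while the positive relative call in A673 was kept with any array left out. After quantile normalisation that call was lost and its sign turned: the A673 difference was -0.03 (adjusted p = 0.735) and the TC32 difference -0.64 (adjusted p = 1.42e-05). No direction is therefore given for HSPA5 in A673. XBP1, whose promoter also holds an ERSE match, had relative differences of -1.93 and -2.34 in the same arrays.

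HERPUD1 encodes HERP, an ER membrane protein that organises the complex degrading misfolded proteins. A673 gave 9.49 and 9.19 (DMSO), 8.51 and 8.38 (100 nM) and 7.46 and 7.04 (500 nM). The TC32 signals were 8.65 and 8.47, then 7.89 and 8.13, then 5.66 and 5.56. The 500 nM arrays of each line lay below all others of that line. HERPUD1 fell 4.24-fold at 500 nM in A673, and at least 6.14-fold in TC32, where the 500 nM mean was under the detection minimum. The relative differences were -1.25 ± 0.12 in A673 (limma adjusted p = 1.22e-08) and -2.16 ± 0.12 in TC32 (adjusted p = 1.46e-12). In the order of relative falls it was number 646 of 10162 in A673.

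**Figure D2:**
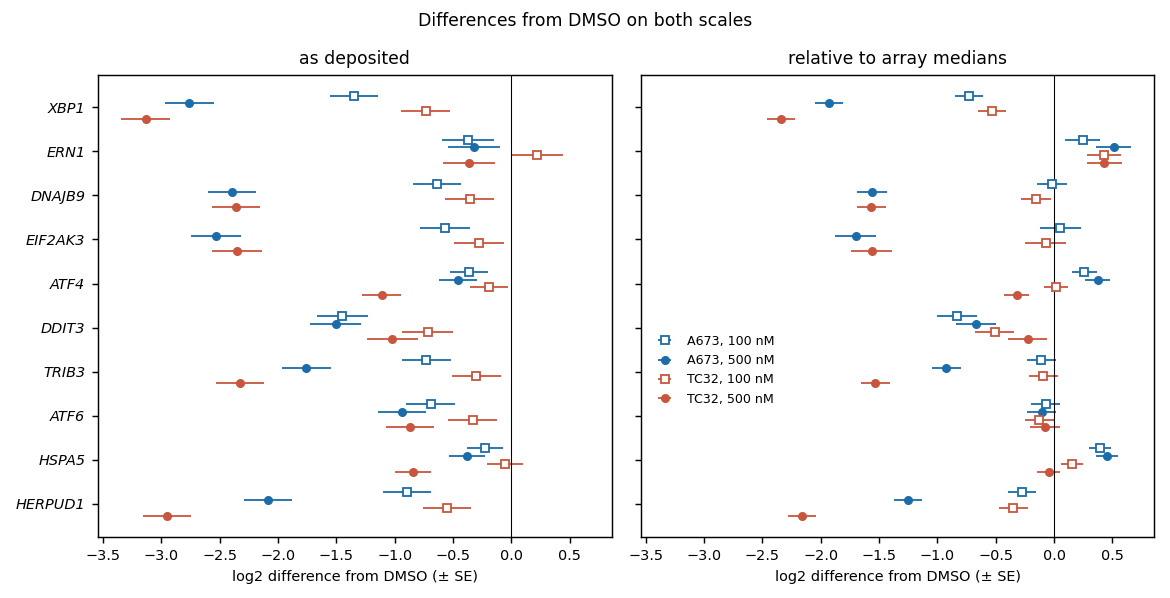
Log2 difference from DMSO (horizontal axes, with SE as bars) of each of the 10 genes at 100 nM and 500 nM in A673 and TC32, on the deposited and the relative scale. XBP1 at 500 nM reaches -2.76 in A673 and -3.14 in TC32 as deposited, and in A673 the points of HSPA5 and ATF4 lie below 0 as deposited but at 0.45 and 0.38 on the relative scale, a sign that quantile normalisation did not keep (-0.03 and -0.08).

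At 100 nM fewer of the 10 genes were called. In A673 7 of the 8 tested were lower as deposited, against 58.7% of all tested genes, and HSPA5 at -0.22 was the exception; 0 were higher, against 1.32%. Relative to the array medians only XBP1 fell (-0.73 ± 0.12, limma adjusted p = 5.11e-05), against 17% of tested genes, and HSPA5 was called higher (0.40 ± 0.10, adjusted p = 0.00224), against 24.5%, but not after quantile normalisation (0.018, adjusted p = 0.884). In TC32 XBP1 and HERPUD1 fell on both scales, against 20.9% of tested genes lower as deposited and 21.2% on the relative scale, and 0 genes were called higher on either (0 also at limma's unadjusted p under 0.05), against 5.56% and 30.5%. The relative differences there were -0.53 ± 0.12 (adjusted p = 0.000967) and -0.35 ± 0.12 (adjusted p = 0.0212). The relative differences of DNAJB9, TRIB3 and EIF2AK3 at 100 nM, between -0.15 and 0.05, did not pass the threshold in either line.

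Several of the calls at 100 nM depended on 1 array. The XBP1 call in A673 on both scales and its relative call in TC32 were kept with any array left out, but its deposited call in TC32 ended without DMSO replicate 1 (-0.56, limma adjusted p = 0.172) or 100 nM replicate 2 (-0.69, adjusted p = 0.0655) of that line. The relative call of HERPUD1 in TC32 ended without DMSO replicate 1 (-0.29, adjusted p = 0.146) or 100 nM replicate 1 (-0.16, adjusted p = 0.334), and its deposited call ended when any of the TC32 arrays or the A673 100 nM arrays was left out (adjusted p from 0.0532 to 0.359). The relative call of HSPA5 in A673 ended without DMSO replicate 1 (0.26, adjusted p = 0.0546). Without either TC32 100 nM array, HERPUD1 was also called lower in A673 on that scale (-0.27, adjusted p = 0.0483) and ATF4 higher (0.26, adjusted p = 0.0178 and 0.018), and without A673 DMSO replicate 2 ATF4 was higher too (0.37, adjusted p = 0.0124), so that the counts of 1 became 2. The deposited A673 call of ATF4 ended without any of the 10 arrays other than those of A673 at 500 nM (adjusted p from 0.0708 to 0.195). The deposited A673 calls of DNAJB9, TRIB3 and EIF2AK3 each ended without A673 100 nM replicate 2 (adjusted p = 0.0644, 0.0685 and 0.109). The DNAJB9 call also ended without A673 DMSO replicate 2 (0.0538), that of TRIB3 without DMSO replicate 1 (0.0867), and that of EIF2AK3 without DMSO replicate 2 (0.228) or 100 nM replicate 1 (0.0813).

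Raising the dose from 100 nM to 500 nM lowered the same 5 genes in both lines on both scales, and these calls were kept with any array left out. In A673 5 of 8 tested genes were lower as deposited, against 26.6% of all tested genes, and on the relative scale 5 of 8, against 25.1%; 0 were higher, against 0.886% and 10.5%. In TC32 all 8 were lower as deposited, against 55.5%, and 6 on the relative scale, against 29.7%; 0 were higher, against 1.1% and 29.1%. In limma 0 were higher at an unadjusted p under 0.05 in either line too. The relative difference of DNAJB9 was -1.54 ± 0.13 in A673 (limma adjusted p = 2.56e-09) and -1.41 ± 0.13 in TC32 (adjusted p = 3.72e-09). That of EIF2AK3 was -1.75 ± 0.18 and -1.49 ± 0.18. The sixth TC32 gene was ATF4 (-0.34 ± 0.11, adjusted p = 0.0102), whose call ended without TC32 100 nM replicate 2 (-0.15, adjusted p = 0.261) or 500 nM replicate 1 (-0.27, adjusted p = 0.0845). The deposited call of ATF6 in TC32 (-0.54) ended without any one of that line's 100 nM or 500 nM arrays (adjusted p from 0.0751 to 0.132). Without A673 500 nM replicate 1, ATF4, ATF6 and HSPA5 were called lower as deposited in A673 too, which made 8.

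**Figure D3:**
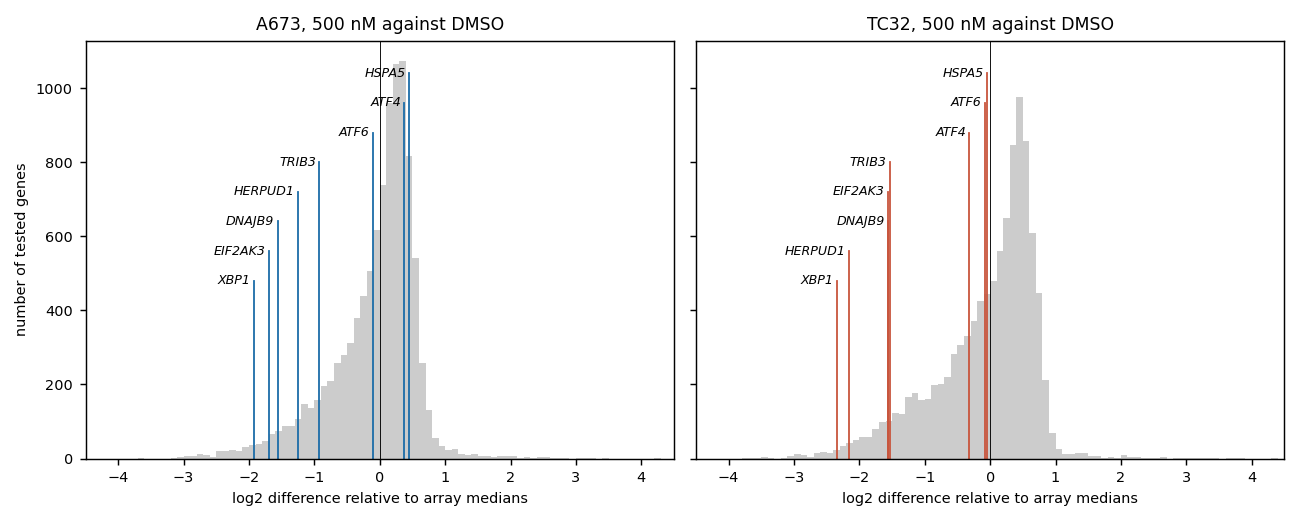
Number of tested genes (vertical axes) by their relative log2 difference at 500 nM (horizontal axes) in A673 and TC32, with the 8 tested genes of the stress response marked. XBP1, at -1.93 and -2.34, lies in the lower tail, whereas ATF6, at -0.11 and -0.08, lies near the middle of all genes, whose medians are 0.10 and 0.15.

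Whether the 500 nM effect differed between the lines was tested as the TC32 effect minus the A673 effect. As deposited, 0 of the 8 genes passed, against 1.28% of all tested genes lower and 0.551% higher. With limma's unadjusted p under 0.05, 3 of them were lower in TC32: HERPUD1 with a difference of -0.87 ± 0.29, ATF4 of -0.65 ± 0.23 and HSPA5 of -0.46 ± 0.22. On the relative scale 4 of 8 passed, all with the TC32 value the lower, against 6.74% of tested genes lower and 3.06% higher. These were HERPUD1 (-0.91 ± 0.17, limma adjusted p = 0.00139), ATF4 (-0.69 ± 0.15, adjusted p = 0.00457), HSPA5 (-0.50 ± 0.14, adjusted p = 0.0203) and TRIB3 (-0.61 ± 0.18, adjusted p = 0.0299). The HERPUD1 and ATF4 calls were kept with any array left out. The HSPA5 call ended without any of 5 arrays: A673 DMSO replicate 1 (-0.36, 0.0788), A673 500 nM replicate 1 (-0.48, 0.0925) or replicate 2 (-0.52, 0.0613), TC32 DMSO replicate 1 (-0.42, 0.141) and TC32 500 nM replicate 1 (-0.40, 0.0991), each with its difference and adjusted p. The TRIB3 call ended likewise without either A673 500 nM array (-0.58, 0.1, and -0.64, 0.0673), either TC32 DMSO array (-0.62, 0.0928, and -0.60, 0.0952) or TC32 500 nM replicate 1 (-0.42, 0.16). Without A673 500 nM replicate 1, HERPUD1 (-0.66) and ATF4 (-0.43) passed as deposited, and without replicate 2 of that group HERPUD1 (-1.07), ATF4 (-0.88), TRIB3 (-0.83), HSPA5 (-0.72) and XBP1 (-0.65) did. The relative differences of XBP1 (-0.42 ± 0.17), DNAJB9 (0.00 ± 0.18), EIF2AK3 (0.14 ± 0.25) and ATF6 (0.03 ± 0.18) did not pass. At 500 nM the EIF2AK3 means of both lines and the TC32 means of XBP1, HERPUD1 and TRIB3 lay under the detection minimum. The TC32 mean of DNAJB9, 5.96, lay just above it. For XBP1, DNAJB9 and EIF2AK3 the lack of a call therefore does not show equal effects. At 100 nM 0 of 8 passed on either scale (limma; 1 of 8 higher at an unadjusted p under 0.05 as deposited and 0 on the relative scale), against 0.0886% of tested genes lower and 2.23% higher as deposited, and 1.78% and 0.866% on the relative scale. Without either A673 500 nM array, XBP1 (0.61) and ATF6 (0.36) passed at 100 nM as deposited.

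With DMSO alone, 7 of the 8 tested genes were higher in A673 than in TC32 as deposited, but so were 77.4% of all tested genes, with 5.12% lower, and the A673 array medians lay higher by a log2 difference of 0.69. On the relative scale XBP1 (0.84 ± 0.12, limma adjusted p = 3.36e-06) and TRIB3 (0.70 ± 0.12, adjusted p = 5.57e-05) were higher in A673, against 33.7% of tested genes, and both calls were kept with any array left out. ATF6 turned from 0.36 as deposited to -0.33 ± 0.13 on the relative scale (adjusted p = 0.0291), against 21.5% of tested genes lower. That call ended without A673 DMSO replicate 1 (-0.14, adjusted p = 0.411), TC32 DMSO replicate 1 (-0.33, adjusted p = 0.105) or TC32 DMSO replicate 2 (-0.34, adjusted p = 0.101). Without A673 DMSO replicate 2, EIF2AK3 was called lower on that scale (-0.51, adjusted p = 0.011), and without A673 DMSO replicate 1, DNAJB9 was called higher (0.34, adjusted p = 0.0364). The deposited EIF2AK3 call (0.53) ended without A673 DMSO replicate 2 (0.31, adjusted p = 0.265), TC32 DMSO replicate 1 (0.55, adjusted p = 0.0668) or replicate 2 (0.51, adjusted p = 0.0933). DDIT3, whose TC32 signals of 5.92 and 5.98 lay at the detection minimum, was higher in A673 by 0.76 ± 0.17 on the relative scale (adjusted p = 0.000742, fit without the minimum).

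The rest of the 2 pathways was described with 5 lists that together named 106 genes, of which 100 were kept and 93 tested. At 500 nM 58 of the 93 fell as deposited in both lines, or 62.37%, against 60.02% of all tested genes, and 0 rose (limma; 0 also at an unadjusted p under 0.05 in either line), against 0.68%. On the relative scale 16 were lower in both lines and 28 higher, or 17.2% and 30.11%, against 23.72% and 25.18% of all tested genes. Leaving out 1 array moved the number lower in both lines as deposited to between 42 and 73, and the number higher on the relative scale to between 20 and 32. After quantile normalisation 20 were lower and 24 higher in both lines, against 22.45% and 29.33% of all tested genes. The median relative difference was 0.16 in A673 and 0.28 in TC32, against 0.10 and 0.15 over all tested genes.

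Among the eIF2 kinases, phosphatase subunits and exchange factors of the integrated stress response, 10 of 11 fell in both lines as deposited, or 90.91% against 60.02% of all tested genes. That number was smaller without A673 DMSO replicate 1. After quantile normalisation 2 were lower in both lines, against 22.45% of all tested genes. On the relative scale 2 fell in both lines, or 18.18% against 23.72%. These 2 were PPP1R15B, a regulatory subunit of the phosphatase that reverses eIF2 phosphorylation, and EIF2B4, a subunit of the exchange factor that phosphorylated eIF2 inhibits. The differences of PPP1R15B were -1.79 in A673 and -2.14 in TC32 as deposited, and -0.95 and -1.35 relative. Those of EIF2B4 were -1.27 and -1.53, and -0.44 and -0.74 relative. The smallest falls called in both lines as deposited were those of EIF2S1, the phosphorylated subunit itself (-0.53 and -0.71), and EIF2B3 (-0.67 and -0.43). Relative to the array medians EIF2S1 was at 0.30 in A673, where it was called higher, and 0.08 in TC32. EIF2B3 was at 0.16 in A673 and 0.36 in TC32, where it was called higher.

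In the list of the ATF4 and CHOP programme, 19 of 26 tested genes fell as deposited in both lines, 5 fell on the relative scale and 8 were higher on that scale. These are 73.08%, 19.23% and 30.77%, against 60.02%, 23.72% and 25.18% of all tested genes. The 19 became 12 without TC32 500 nM replicate 1, and the 8 became 3 without A673 500 nM replicate 1. Quantile normalisation gave 7 lower and 4 higher in both lines, against 22.45% and 29.33% of all tested genes. The largest falls were those of NFE2L2, the antioxidant transcription factor that PERK can activate (-2.19 in A673 and -2.69 in TC32 as deposited, -1.35 and -1.89 relative), and CEBPB, a dimerisation partner of CHOP (-1.79 and -2.25, -0.95 and -1.46). The smallest falls called in both lines as deposited, by the mean of the lines, were those of MTHFD2, a mitochondrial folate enzyme (-0.64 and -0.38), and NARS1, the asparaginyl-tRNA synthetase (-0.54 and -0.46). Of those higher in both lines on the relative scale, the highest by the mean of the lines were GDF15, a secreted stress cytokine (0.42 in A673 and 1.05 in TC32), and ATF3, an early stress transcription factor (0.56 and 0.85). Neither was called higher in both lines as deposited.

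Of the IRE1 and XBP1 programme, 6 of 14 tested genes fell as deposited in both lines, 1 fell on the relative scale, and 4 were higher on that scale. These are 42.86%, 7.14% and 28.57%, against 60.02%, 23.72% and 25.18% of all tested genes. The 6 became 3 without A673 DMSO replicate 1 and 11 without A673 500 nM replicate 1. The number lower on the relative scale was larger without A673 DMSO replicate 1 or either TC32 100 nM array. The number higher was smaller without TC32 DMSO replicate 2 or TC32 500 nM replicate 2. It was larger without A673 DMSO replicate 2 or either TC32 100 nM array. After quantile normalisation 1 was lower and 6 higher in both lines, against 22.45% and 29.33% of all tested genes. EDEM3, an ER mannosidase that marks proteins for degradation, fell on both scales (-2.12 in A673 and -2.54 in TC32 as deposited, -1.28 and -1.75 relative). SEC24D, a coat subunit of vesicles leaving the ER, fell as deposited (-1.25 and -1.60). On the relative scale it was called lower in TC32 (-0.81) but not in A673 (-0.42, limma adjusted p = 0.0578). Among genes called lower in both lines as deposited, those that fell least by the mean of the lines were SRPRB and KDELR3. SRPRB is a subunit of the receptor for nascent secretory chains (-0.51 and -0.69), and KDELR3 a receptor that returns ER proteins (-0.45 and -0.54). SEC61B, a channel subunit (0.84 and 0.89), and DNAJC3, an ER co-chaperone and PERK inhibitor (0.55 and 0.47), led the genes higher in both lines on the relative scale by the mean of the lines.

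The list of the ATF6 branch and ER chaperones held 24 tested genes. As deposited 12 fell in both lines, or 50.0% against 60.02% of all tested genes, and the 12 became 7 without TC32 DMSO replicate 1 or TC32 500 nM replicate 2. On the relative scale 2 fell, or 8.33% against 23.72%, and 12, or 50.0%, were higher against 25.18%, between 10 and 14 with 1 array left out. After quantile normalisation 4 were lower and 9 higher in both lines, against 22.45% and 29.33% of all tested genes. The 2 that fell on both scales were NFYA and NFYB, subunits of the factor that binds the CCAAT part of ERSE: the relative differences were -0.72 in A673 and -1.35 in TC32 for NFYA, and -0.48 and -0.65 for NFYB. At 100 nM NFYA went the other way, with relative differences of 0.85 (limma adjusted p = 2.73e-05) in A673 and 0.86 (adjusted p = 1.66e-05) in TC32. Of those higher in both lines on the relative scale, HSP90B1 and ERO1A were highest by the mean of the lines. HSP90B1 is the ER form of HSP90 (0.78 and 0.65), and ERO1A an oxidase that drives disulfide formation (0.60 and 0.70). PDIA4, a disulfide isomerase (-0.38 and -0.46 as deposited), and ERO1B (-0.55 and -0.48) were the least lowered, by the mean of the lines, of those that fell as deposited in both lines. Relative to the array medians PDIA4 was called higher in A673 (0.45) and TC32 (0.34). ERO1B was called higher on that scale in TC32 (0.32) but not in A673 (0.28). The median relative difference of the list was 0.34 in A673 and 0.41 in TC32, against 0.10 and 0.15 over all tested genes.

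Of 18 tested genes of ER-associated degradation, 11 fell as deposited in both lines, 6 fell on the relative scale and 4 were higher on it. These are 61.11%, 33.33% and 22.22%, against 60.02%, 23.72% and 25.18% of all tested genes. The number higher on the relative scale was smaller without A673 DMSO replicate 1. It was larger without A673 DMSO replicate 2 or either TC32 100 nM array. After quantile normalisation 6 were lower and 5 higher in both lines, against 22.45% and 29.33% of all tested genes. HERPUD2, the paralog of HERPUD1, fell on both scales (-1.34 in A673 and -1.61 in TC32 relative), with its TC32 signal at 500 nM under the detection minimum. UBE2J2, an ER ubiquitin-conjugating enzyme, fell likewise (-1.06 and -1.27 relative). Its relatives UBE2J1 (-0.62 and -0.73 as deposited) and UBE2G2 (-0.63 and -0.49) were the least lowered, by the mean of the lines, among genes called lower in both lines as deposited. AUP1, which recruits UBE2G2 (0.56 and 0.47), and DERL1, a subunit of the retrotranslocation channel (0.48 and 0.57), led the genes higher in both lines on the relative scale by the mean of the lines.

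At 100 nM 56 of the 93 list genes were lower as deposited in A673 and 18 in TC32, against 58.7% and 20.9% of all tested genes. On the relative scale 9 were lower and 35 higher in A673, against 17% and 24.5% of all tested genes. These numbers depended on single arrays. Within some lists the number higher was smaller without A673 DMSO replicate 1 or A673 100 nM replicate 2. Within some it was larger without A673 DMSO replicate 2. In TC32 18 were lower and 27 higher on that scale, against 21.2% and 30.5%. The number of ER-associated degradation genes lower there was smaller without TC32 100 nM replicate 1. As deposited 0 were higher in A673 (limma; 0 at an unadjusted p under 0.05) and 5 were higher in TC32, against 1.32% and 5.56% of all tested genes. The 5, named after their values were seen, were DDIT4 (1.03 ± 0.21), SESN2 (0.77 ± 0.21), NFYA (0.65 ± 0.21), ERO1A (0.64 ± 0.21) and ATF3 (0.56 ± 0.21). DDIT4 and SESN2 restrain mTORC1 under stress. At 500 nM SESN2 and NFYA were lower than with DMSO in both lines on both scales (SESN2 -1.53 in A673 and -1.90 in TC32 as deposited).

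**Figure D4:**
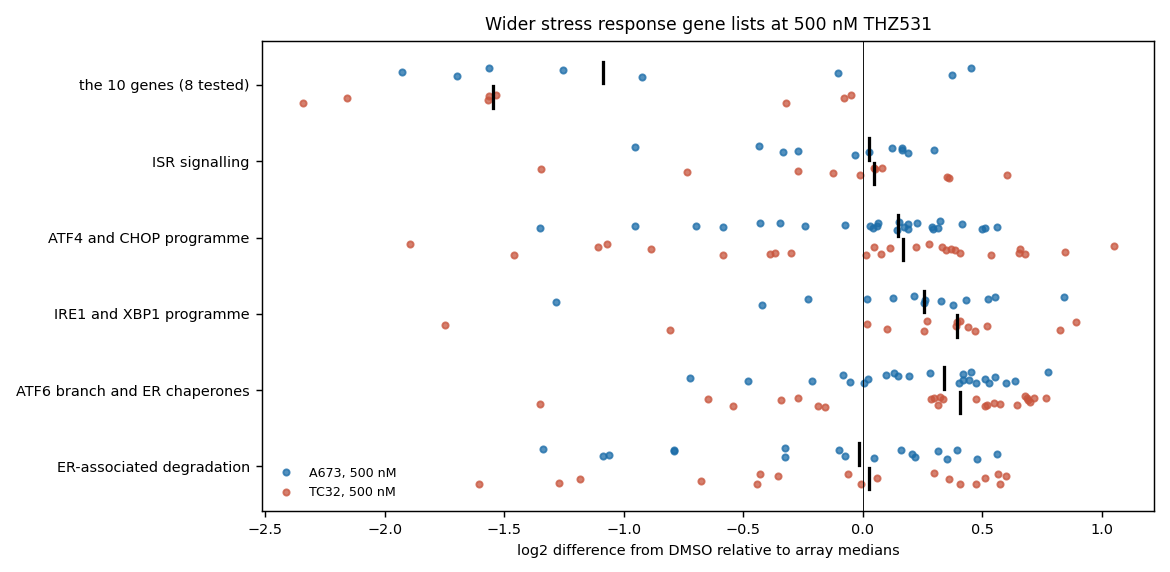
Relative log2 difference at 500 nM (horizontal axis) of each tested gene in the 5 wider lists and of the 8 tested stress response genes, as points for A673 and TC32. Most ATF6 branch and chaperone genes lie above 0, with list medians of 0.34 and 0.41, whereas in the top row XBP1, HERPUD1, DNAJB9, TRIB3 and EIF2AK3 lie furthest below 0 in both lines.

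The ERSE match shared by XBP1 and HSPA5 was next used to group genes. RefSeq windows with a match belonged to 25 genes, 14 of them tested. CALR, CANX, CRELD2, ERO1B, HSP90B1 and PDIA6 are also in the list of the ATF6 branch and ER chaperones, so the groupings overlap. As deposited 7 of the 14 were lower in both lines at 500 nM and 0 higher, against 60.02% and 0.68% of all tested genes. With 1 array left out the 7 ranged from 4 to 8. On the relative scale at 500 nM 9 of the 14 were higher and 1 was lower in each line, against 29.6% higher and 27.4% lower of all tested genes in A673 and 41.3% and 30.7% in TC32. The 1 lower on this scale was XBP1. HSP90B1 (0.78 in A673 and 0.65 in TC32), CRELD2 (0.64 and 0.52), PDIA6 (0.55 and 0.68) and CALR (0.51 and 0.55) were ER chaperones or folding factors higher in both lines, while HSPA5 was at 0.45 in A673 and -0.05 in TC32 (-0.03 and -0.64 after quantile normalisation). The median was 0.40 in A673 and 0.37 in TC32. With 1 array left out the number higher ranged from 7 to 10 in A673 and from 6, without TC32 500 nM replicate 1, to 9 in TC32, and the number lower from 1 to 2. After quantile normalisation 8 were higher and 1 lower in A673, against 35.75% and 25.96% of all tested genes. In TC32 8 were higher and 2 lower, against 43.23% and 29.9%. The medians were then 0.23 in A673 and 0.17 in TC32, against 0.12 and 0.15 over all tested genes. Genes with an ERSE-II match, 12 of 18 tested, were split 5 higher and 5 lower in each line, with HERPUD1 the lowest of them in TC32. In A673 ZNF143 was marginally lower than HERPUD1 (-1.28 against -1.25).

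**Figure D5:**
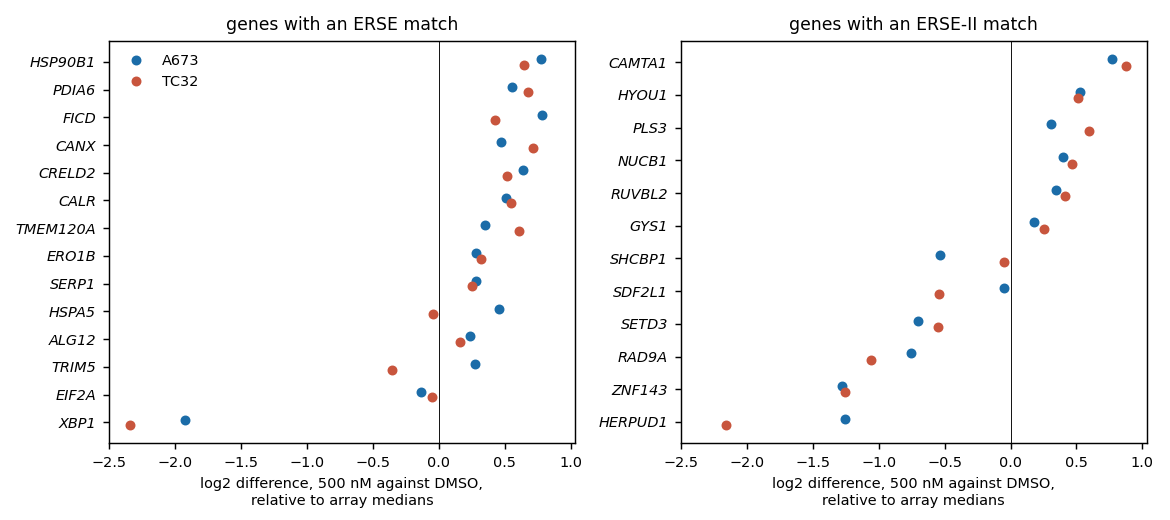
Relative log2 difference at 500 nM (horizontal axes) of each tested gene whose RefSeq promoter window holds an ERSE or an ERSE-II match, as points for A673 and TC32. XBP1 stands alone at -1.93 and -2.34 among ERSE genes, HSP90B1, CRELD2, PDIA6 and CALR lie to the right of 0, and HERPUD1 is at -1.25 and -2.16 among ERSE-II genes.

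Over the 12 median-centred arrays the genes most like each of the 10 were found by Pearson's r, given as a description because these arrays share their groups. For XBP1 they were RMP24 (r = 0.996), CUL1 (0.994) and MRPS31 (0.994), and for HERPUD1 they were MEPCE (0.993), RDH13 (0.990) and RIOK2 (0.989). DNAJB9 was closest to IPPK (0.992), FAM193A (0.991) and MSANTD4 (0.990), TRIB3 to BAZ1B (0.990), BCAS2 (0.990) and GZF1 (0.989), and EIF2AK3 to MTUS1 (0.990), PRMT9 (0.986) and ARHGAP12 (0.986). For the genes that followed the array medians more closely the values were lower: ATF4 was closest to H2AX (0.901), PIGH (0.883) and POP7 (0.880), HSPA5 to PIGH (0.960), EAF1 (0.956) and FTSJ1 (0.944), and ATF6 to TMEM42 (0.954), SS18 (0.954) and RRAGA (0.951). DDIT3 was closest to RPUSD1 (0.959), RAB3GAP1 (0.928) and DGKG (0.922), and ERN1 to HLA-G (0.963), N4BP2 (0.949) and LEMD3 (0.946). Within the 10, the 2 most alike pairs were XBP1 with HERPUD1 (0.957) and XBP1 with TRIB3 (0.955), followed by DNAJB9 with EIF2AK3 (0.953), and ATF4 resembled HSPA5 most (0.861).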

How the data were processed

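Total RNA from 12 cultures of A673 and TC32 was measured on arrays, and the authors deposited 1 log2 value per probe set and array. The submitters' processing notes name MAS5, GRCh37 and hg19 without saying how each was used, and the normalisation behind the deposited log2 signal is not given in the sources used here, nor is a batch. The table holds 49395 probe sets; 44994 name 1 gene, 1832 name several and 2569 name no gene. Rows whose values carry 3 decimals (46566 probe sets) gave 17029 genes, of which 92 sharing their values with another gene were left out. Where a gene had several distinct sets of values (41 genes, outside the 10), the set with the highest mean was used.

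Differences were tested with limma 3.58.1 in R 4.3.3, with 1 mean per group over all 12 arrays, eBayes with a trend, two-sided tests and Benjamini-Hochberg adjustment over 10162 genes at 0.05. The prior degrees of freedom were infinite as deposited, so those p-values are smaller than 2 arrays a group alone would give, and 15.8 on the relative scale. P-values measure the spread between these cultures only, and the number of arrays limits the precision. Where a group mean lay under the detection minimum (log2 5.94), its fold was computed from that minimum and written as at least. Such a bound depends on that minimum, which is a percentile of gene means and not a measured limit of detection. On data simulated for A673 at 500 nM with 10162 genes, 97 of 100 genes changed by a log2 of 1 and 100 of 100 changed by 2 were recovered, with 6 false calls. Only 100 genes were changed at each size, whereas 82.5% of tested genes were called lower in A673 at 500 nM as deposited. On that scale the median residual SD was 0.189, against 0.118 relative to array medians, and the A673 500 nM arrays were offset by -0.52. The recovery is therefore not taken as that of the deposited fit.

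The 10 genes, the lists and the motifs were chosen with earlier results of these data known. Of each list the text names the 2 lowest and 2 highest genes by mean 500 nM difference among those called alike in both lines as deposited, the 2 highest called higher in both on the relative scale, and, for each of the 10, the 3 genes with the highest r. Genes named for an ERSE match were picked after their values were seen. Alternatives were centring, quantile normalisation, other detection minimums, no trend, a replicate block and leaving out each array in turn.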

Additional observations from a re-analysis of the deposited data

Results flagged for a closer look

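For 4 genes the 500 nM effect, relative to the array medians, differed between the lines by the interaction test in limma, each with the TC32 value below the A673 value. The difference (TC32 effect minus A673 effect) was -0.91 for HERPUD1, -0.69 for ATF4, -0.50 for HSPA5 and -0.61 for TRIB3. As deposited, the same differences did not pass the threshold. Those of HSPA5 and TRIB3 also lost their relative call when any of 5 arrays was left out. With 2 arrays per group no group could be tested for an array far from the others.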

How the results depend on the processing

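The falls of XBP1, HERPUD1, DNAJB9, TRIB3 and EIF2AK3 at 500 nM kept their direction and call in both lines under every alternative that could be run (EIF2AK3 is too dim for the stricter minimum, the 60th percentile); limits lie in the 2 arrays per group, in the unknown normalisation, which decides the direction of genes near the array medians, and in signals under the detection minimum, which give bounds. For changed counts and directions the cause was not tested beyond the change of scale itself. Of the 8 tested genes, centring each array on its median gave 5 lower and 2 higher in A673 at 500 nM, 1 lower and 1 higher in A673 at 100 nM, 4 lower for the difference of the 500 nM effects (TC32 minus A673), and 1 lower and 2 higher for A673 against TC32 with DMSO. Quantile normalisation gave 5, 1 and 5 lower and 0 higher in the first 3 of these, which ended the positive calls of ATF4 and HSPA5 in A673, 1 lower and 2 higher with DMSO, and 1 higher (ATF6, 0.26) for 500 nM against 100 nM in TC32. Leaving out each array in turn, the number lower ranged from 6 to 8 in A673 at 500 nM, 3 to 8 in A673 at 100 nM, 0 to 4 in TC32 at 100 nM, 5 to 8 for 500 nM against 100 nM in A673, 7 to 8 for that in TC32 and 0 to 5 for the difference of the 500 nM effects. The number higher ranged from 0 to 2 for the difference of the 100 nM effects and from 6 to 8 with DMSO. Correlations of gene deviations by replicate number ran from -0.16 to 0.24 between the groups of a line. They were the same on both scales, because a shift shared by a whole array does not enter them. They therefore do not decide whether the replicate numbers pair the arrays. The array median over the genes kept was lower in replicate 2 than in replicate 1 in every group. Over the tested genes TC32 at 500 nM went the other way (6.87 in replicate 1 and 6.88 in replicate 2). With the replicate numbers as a block, the difference of the 500 nM effects had 1 gene lower in place of 0. Calls over all genes for the difference of the 100 nM effects went from 227 to 940 higher and from 9 to 18 lower. For the difference of the 500 nM effects they went from 130 to 217 lower and from 56 to 93 higher.

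Signs turned as follows. On centring at 500 nM in A673, ATF4 became 0.38 and HSPA5 0.45; at 100 nM in A673, ATF4 became 0.26, HSPA5 0.40 and EIF2AK3 0.0535; at 100 nM in TC32, ATF4 became 0.0165 and HSPA5 0.15; from 100 nM to 500 nM, ATF4 became 0.12 and HSPA5 0.0585 in A673 and ATF6 0.0505 in TC32; DNAJB9 became -0.0035 for the difference of the 500 nM effects; and with DMSO, ATF4 became -0.052, ATF6 -0.33 and EIF2AK3 -0.17. On centring without a detection minimum, chosen after seeing the data, ERN1 became 0.51 in A673 and 0.43 in TC32 at 500 nM, 0.25 in A673 at 100 nM, 0.003 in TC32 from 100 nM to 500 nM and -0.0685 with DMSO, and DDIT3 became 0.16 in A673 and 0.28 in TC32 from 100 nM to 500 nM. On quantile normalisation ATF6 became 0.182 in A673 and 0.179 in TC32 at 500 nM, and 0.19 in A673 and 0.26 in TC32 from 100 nM to 500 nM; at 100 nM HSPA5 became 0.018, DNAJB9 0.0379 and EIF2AK3 0.14 in A673, and EIF2AK3 0.034 in TC32; ATF4 became 0.0276 in A673 from 100 nM to 500 nM; the differences of the 500 nM effects became -0.0026 for ATF6, -0.0941 for DNAJB9 and -0.083 for EIF2AK3; and with DMSO, HERPUD1 became -0.0733, ATF6 -0.49 and EIF2AK3 -0.23. Leaving out each array in turn, the values spanned 0 for HSPA5 in TC32 at 100 nM (-0.166 to 0.0585), for ATF4 (-0.326 to 0.13), ATF6 (-0.509 to 0.017) and HSPA5 (-0.411 to 0.101) from 100 nM to 500 nM in A673, and for the differences of the 500 nM effects of ATF6 (-0.195 to 0.332), DNAJB9 (-0.28 to 0.353) and EIF2AK3 (-0.041 to 0.396).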
